A study of Mus musculus with 8 samples.

Results

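Egr1, Egr2 and Egr3 and the orphan nuclear receptor genes Nr4a1, Nr4a2 and Nr4a3 were followed in regulatory T (Treg) cells from the mouse large intestine, in the presence and absence of the aryl hydrocarbon receptor (Ahr). The 6 genes were taken by name from a table of 19191 gene rows, and all 6 had enough reads to be tested. The table holds RNA-seq counts of Treg cells sorted from the lamina propria of C57BL/6 mice, with 2 libraries per genotype. Both genotypes carried Foxp3Yfp-Cre, a Cre recombinase expressed from the Foxp3 locus and so mainly in Treg cells, and a floxed Ahr allele. The group called WT was Ahrf/+ and kept 1 intact allele in Treg cells, and the group called KO was Ahrf/- with a null second allele. By these genotypes WT means 1 working copy of Ahr in Treg cells, and cells outside the Treg lineage also differed, with 1 copy in KO and 2 in WT. Effects in Treg cells and effects of the surrounding tissue therefore cannot be told apart. The sources used here give no age or sex and do not state that each library came from a separate animal. The p-values therefore reflect only how these libraries vary, and part of that may be technical.

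The Egr genes encode zinc finger transcription factors, and the Nr4a genes encode nuclear receptors that act without a known endogenous ligand being required. All are transcribed within minutes to hours of antigen receptor engagement, through the calcium and NFAT branch and the ERK branch of the pathway, and their transcripts turn over fast, so they are widely used as readouts of recent receptor signalling. In T cells Egr2 and Egr3 restrain effector responses and induce inhibitors of the Ras pathway, while Nr4a factors support Foxp3 expression and Treg identity. The comparison of KO with WT asks whether this readout differs in gut Treg cells when Ahr is lost.

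The stretches before the start sites show which recognition letters for signal-driven factors and for Ahr lie next to these genes. RefSeq windows (build GRCm38.p6) matched 4 of the 6 genes, with 5 windows for Egr2 and 1 each for Nr4a1, Nr4a2 and Nr4a3. The 250 bases before the start are printed 5′ to 3′ on the strand of the gene, with capitals for the CRE core that CREB-type factors read (TGACG on either strand), for the SRF site known as the CArG box, and for the AHR core (GCGTG on either strand). The printed Egr2 window, 1 of the 5, lies on the plus strand at chr10:67537619-67537868. Which Egr2 start site these cells use was not examined. The window of Nr4a1 lies on the plus strand at chr15:101266596-101266845, Nr4a2 on the minus strand at chr2:57124004-57124253 and Nr4a3 on the plus strand at chr4:48045055-48045304.
Egr2: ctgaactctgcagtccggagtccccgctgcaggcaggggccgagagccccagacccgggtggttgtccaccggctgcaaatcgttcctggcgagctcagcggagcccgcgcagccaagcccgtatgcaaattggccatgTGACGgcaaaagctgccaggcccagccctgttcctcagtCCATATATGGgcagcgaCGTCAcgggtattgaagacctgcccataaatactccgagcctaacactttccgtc
Nr4a1: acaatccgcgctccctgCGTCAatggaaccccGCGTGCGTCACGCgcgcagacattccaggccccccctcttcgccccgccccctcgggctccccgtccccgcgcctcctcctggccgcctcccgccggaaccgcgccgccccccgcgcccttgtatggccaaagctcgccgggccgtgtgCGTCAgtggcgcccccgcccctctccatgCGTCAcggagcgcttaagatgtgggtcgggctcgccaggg
Nr4a2: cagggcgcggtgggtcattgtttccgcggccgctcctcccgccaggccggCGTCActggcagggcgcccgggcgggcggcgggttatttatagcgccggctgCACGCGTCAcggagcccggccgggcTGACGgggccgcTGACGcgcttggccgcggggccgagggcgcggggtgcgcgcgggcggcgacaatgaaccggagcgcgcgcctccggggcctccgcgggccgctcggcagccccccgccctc
Nr4a3: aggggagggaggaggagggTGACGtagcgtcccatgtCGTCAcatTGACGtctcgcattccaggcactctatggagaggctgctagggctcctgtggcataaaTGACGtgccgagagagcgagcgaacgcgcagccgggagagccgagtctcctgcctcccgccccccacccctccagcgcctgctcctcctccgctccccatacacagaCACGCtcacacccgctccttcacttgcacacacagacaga

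Each of the 3 Nr4a windows held 4 matches to the CRE core, against 0.137% of all 32851 windows of this length with at least 4, and 17.8% with at least 1. Matches to the AHR core numbered 2 before Nr4a1 and 1 each before Nr4a2 and Nr4a3, and this core occurred in 28.2% of all windows. It overlapped a CRE core before Nr4a1 and before Nr4a2. The Egr2 window shown held an SRF site, CCATATATGG, at positions -72 to -63 from the start, beside 2 CRE cores, and no AHR core. This SRF site also lay in the other 2 of the 3 overlapping Egr2 windows, while SRF sites occurred in 1.47% of all windows. Outside this overlap, the Egr2 window farthest upstream held no match to any motif searched. The next one held a different SRF site (CCTTTTTTGG) and 3 matches to the NFAT core, with no CRE core. An EGR site in its G form (GCGGGGGCG, 2.57% of windows) lay before Nr4a1 at positions -60 to -52, on the minus strand. The NFAT core (GGAAA, 55.6% of windows) had 1 match before Nr4a2 and 1 in the printed Egr2 window. None of the 8 windows held the full CRE (TGACGTCA, 1.55%), the AP-1 site (TGANTCA, 6.75%), the NR4A site (AAAGGTCA, 1.34%) or the T form of the EGR site (GCGTGGGCG, 0.536%). Both strands were searched. The 4 printed windows were 61.6% to 80.0% G and C, and the shares over all windows take no account of base composition. A match describes letters and shows no binding.

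Depth differed between libraries, with totals of 26862922 and 62402450 counts for WT replicates 1 and 2 and of 30993483 and 53438828 for KO replicates 1 and 2. Levels are given as CPM, the count per 1000000 counts of the library after TMM scaling. Marker sums, and the single marker genes given with them, use library totals without TMM scaling. Ahr itself stood at 581 and 539 CPM in the WT libraries, against 536 and 518 CPM in the KO libraries, and since counts run over the whole gene they check neither the deletion nor the labels. Treg and T cell markers were high in all libraries, with a summed level of 7340 to 7500 CPM in WT and 7780 to 8350 CPM in KO over 9 of the 10 genes of that list, none of them at 0. Ctla4 held the largest part of that sum, at 3190 and 3110 CPM in WT against 3740 and 3580 in KO. Cd4 was also higher in KO (1040 and 1110 against 1220 and 1160 CPM), while Foxp3 was not (279 and 257 against 248 and 256 CPM). Replicate 2 was the deeper library in both genotypes and differed from replicate 1 in the levels of some markers of other cells. The summed stromal markers (7 of 7 genes) were at 13.8 and 69.4 CPM in WT replicates 1 and 2, with 10.3 and 80.9 in KO, and the macrophage markers (9 of 10 genes) ran the other way, at 144 and 67.3 CPM in WT, with 103 and 46.0 in KO. For this reason each gene is given by library, and KO over WT also within each replicate number.

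All 6 transcripts were detected in every library, over a wide range of counts. The smallest count was 115, for Egr3 in WT replicate 1, and the largest was 42069, for Nr4a1 in WT replicate 2. CPM are not comparable between genes of unequal length, and exon lengths were not used here. On the scale of mean CPM per kb of annotated gene span, introns included, Nr4a1 was highest at 88.3, followed by Egr1 at 20.0, Nr4a3 at 8.45, Nr4a2 at 6.17, Egr2 at 2.84 and Egr3 at 1.61. On this scale the ranges over libraries overlapped only for Nr4a3 (6.92 to 9.79) and Nr4a2 (5.14 to 7.07), although Nr4a3 was above Nr4a2 within each library. Long introns lower the scale for Nr4a2 (17.2 kb) and Nr4a3 (41.3 kb) relative to Egr1 (3.78 kb), so the order depends on this choice of length. The fourth family member, Egr4, was close to the detection limit with 21 and 34 counts in WT and 27 and 49 in KO, or 0.782, 0.534, 0.880 and 0.927 CPM.

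**Figure D1:**
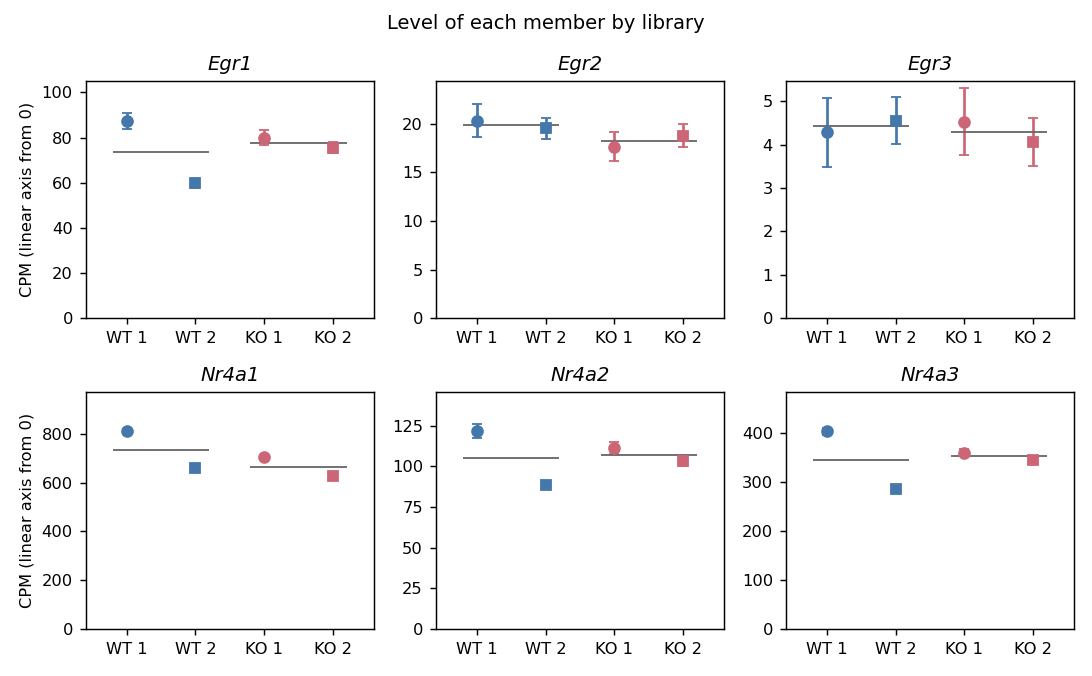
CPM of Egr1, Egr2, Egr3, Nr4a1, Nr4a2 and Nr4a3 in the 4 libraries (WT blue, KO red, circles replicate 1, squares replicate 2), with grey lines at the mean of each genotype and bars as long as the 95% Poisson interval, which covers counting error only. WT replicate 2 is the lowest library for Egr1, Nr4a2 and Nr4a3, and only for Egr2 do both KO points lie below both WT points.

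Nr4a1, also called Nur77, is the standard reporter of antigen receptor signal strength (chromosome 15, 101097277 to 101105223, plus strand, mm9). WT replicates 1 and 2 held 811 and 661 CPM of it, and KO replicates 1 and 2 held 706 and 628. WT replicate 1 stood highest and KO replicate 2 lowest, and the genotypes overlapped because WT replicate 2 lay below KO replicate 1. KO was lower than WT within both replicate numbers, by a log2 ratio of -0.20 in replicate 1 and -0.07 in replicate 2. The step from replicate 1 to replicate 2 was larger than the latter in both genotypes, at -0.30 in WT and -0.17 in KO. At this depth counting error was small, with a 95% interval of -0.32 to -0.27 for the WT step (exact binomial on the 2 counts), so the spread between libraries and not counting set the error. The order of the 4 libraries, from WT replicate 1 over KO replicate 1 and WT replicate 2 to KO replicate 2, was also that of the summed macrophage markers, of which Csf1r stood at 36.0, 24.5, 16.6 and 12.5 CPM in that order. The summed neutrophil markers had this order too, at 1.15, 0.936, 0.785 and 0.73 CPM, so it is not particular to macrophage markers. None of the macrophage markers was at 0 in any library. The part of either cell type in the Nr4a1 difference was not tested.

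Nr4a3, or Nor1, overlaps in function with Nr4a1 (chromosome 4, 48058025 to 48099319, plus strand). The WT libraries held 404 and 286 CPM of it, the KO libraries 360 and 346. Both KO libraries lay between the WT libraries, so the genotype difference changed direction with the replicate, from -0.17 in replicate 1 to 0.27 in replicate 2. Nr4a2, or Nurr1 (chromosome 2, 56959241 to 56976414, minus strand), followed the same course with 121 and 88.3 CPM in the WT libraries against 111 and 103 in the KO libraries. The within-replicate log2 ratios of Nr4a2 were -0.13 and 0.22, again of opposite sign. The spread of both genes was larger within WT, with an SD of 83.7 CPM for Nr4a3 and 23.4 CPM for Nr4a2, than within KO, with 10.4 and 5.65 CPM (n = 2 each).

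Egr1, the immediate early factor that ERK signalling induces through SRF and its partners (chromosome 18, 35020861 to 35024638, plus strand), resembled Nr4a2 and Nr4a3 rather than the other Egr genes. WT replicates 1 and 2 held 87.5 and 59.8 CPM, and KO replicates 1 and 2 held 79.9 and 75.5. WT replicate 2 was the lowest library, and both KO libraries lay between the WT libraries. The log2 ratio of KO over WT was -0.13 in replicate 1 and 0.34 in replicate 2, the largest of the 6 genes within a replicate. The step between the WT libraries was -0.55 (95% counting interval -0.63 to -0.48), while the KO libraries differed by -0.08. Of all 14274 tested genes, 15.5% moved at least as far between the WT libraries. That share includes genes of low count, whose steps carry more counting error, and was not taken among genes at the level of Egr1.

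Egr2, which in T cells restrains activation and is needed for tolerance (chromosome 10, 66998223 to 67004936, plus strand), was even across libraries. The WT libraries were at 20.3 and 19.5 CPM, the KO libraries at 17.6 and 18.8. Both KO libraries were below both WT libraries, which was the case for 1 of the 6 genes. Across all tested genes 13.4% had both KO libraries below and 13.5% had both above, so 1 of 6 lies near the background. The within-replicate log2 ratios were -0.21 (95% counting interval -0.38 to -0.03) and -0.06 (-0.18 to 0.07), so in replicate 2 the difference was within counting error.

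Egr3, an NFAT-driven relative of Egr2 (chromosome 14, 70477252 to 70479964, plus strand), had the fewest reads. The WT libraries were at 4.28 and 4.55 CPM, against 4.53 and 4.07 for KO. The genotypes overlapped, and KO was above WT in replicate 1 (0.08) and below it in replicate 2 (-0.16). All 4 steps between libraries of 1 genotype or 1 replicate number lay within counting error, with intervals of -0.29 to 0.45 for KO over WT in replicate 1 and -0.42 to 0.10 in replicate 2.

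Across the 4 libraries the 6 genes therefore did not move as 1 block. The root mean square difference between log2 CPM profiles, each centred on the mean of its gene, was 0.0224 for Nr4a2 and Nr4a3, 0.0316 for Egr1 and Nr4a3 and 0.0442 for Egr1 and Nr4a2. The other 12 pairs differed by 0.110 to 0.238. Nr4a1 shared the high value of WT replicate 1 with Egr1, Nr4a2 and Nr4a3 (centred log2 CPM 0.21 to 0.22 in these 4 genes) but not the low value of WT replicate 2, where it was at -0.08 and the other 3 genes were at -0.33 to -0.25. These profiles rest on 4 libraries and are given as a description.

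**Figure D2:**
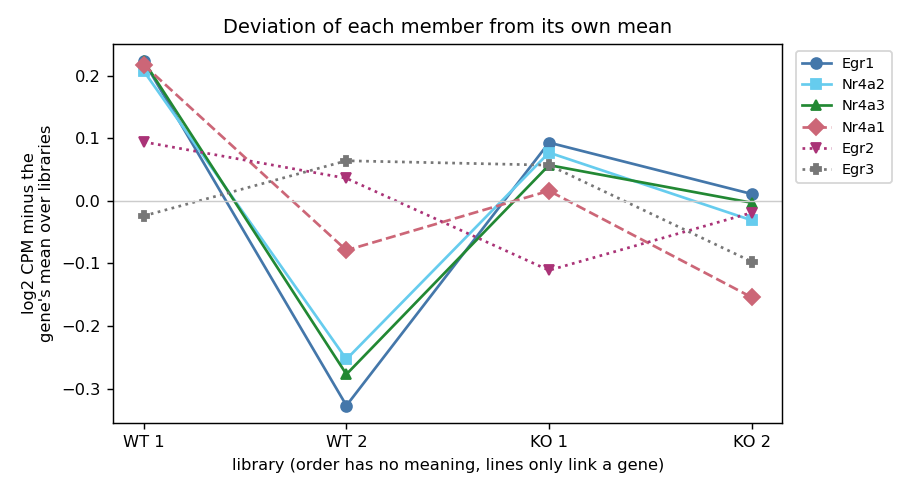
Log2 CPM of each gene minus its mean over the 4 libraries, on the vertical axis, by library on the horizontal axis. Egr1, Nr4a2 and Nr4a3 (solid lines) run together with their lowest point at WT replicate 2, between -0.33 and -0.25, while Egr2 and Egr3 (dotted) stay between -0.11 and 0.09 and Nr4a1 (dashed) is lowest in KO replicate 2.

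Among all other tested genes with a mean of at least 10 CPM (8607 genes), the gene closest in profile to both Egr1 and Nr4a3 was Maff, a small Maf transcription factor gene that is itself induced as an early response gene. Maff, a member of the list of other immediate early genes, stood at 105 and 73.8 CPM (WT) and 94.1 and 93.2 CPM (KO), with a root mean square difference of 0.0299 from Egr1 and 0.0251 from Nr4a3. Next to Egr1 came Syvn1 (0.0308) and D230025D16Rik (0.0379), and next to Nr4a3 came Irs2 (0.0295) and Hnrnpa0 (0.0305). Nr4a2 was closest to Arhgap17 (0.0132), Phlpp1 (0.0196) and the heat shock chaperonin gene Hspe1 (0.0206). Nearest to Nr4a1 were Ube2d1, Sgip1 and Man1a (0.0122 to 0.0129), and nearest to Egr2 were Tcof1, B3gat2 and Meis3 (0.00852 to 0.0125). For Egr3 the nearest were Rp9, Cops7a and Pigk (0.00381 to 0.00568). These differences are not scaled to how far a gene moves, so a gene even across libraries lies close to other even genes. Their size therefore does not rank the genes by how well they are matched. The steps of Egr3 between libraries lay within counting error, as did most of those of Egr2. Their nearest genes are thus no evidence of a shared course.

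In the test of KO against WT over all libraries, none of the 6 genes was called. edgeR's quasi-likelihood test gave 3 log2 fold changes above 0 and 3 below, between -0.14 and 0.08 with a median of -0.01 (0.01 over all tested genes), and an adjusted p of 1.00 for each. The test called 0% of the 14274 tested genes at an adjusted p under 0.05, and at an unadjusted p under 0.05 it held 407 genes (2.85%) and none of the 6. DESeq2 called 0.285% of the genes to which it gave an adjusted p, limma-voom called 0 genes, and the adjusted p in the authors' deposited table was under 0.05 for 0.344% of rows. None of the 6 was among these, with 1.00 in DESeq2 and 0.889 in the authors' deposited table for each of them.

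The intervals show what size of change these libraries could have missed. Nr4a1 had a log2 fold change of -0.14 ± 0.13 (SE), and its 95% interval ran from 28.0% lower to 14.0% higher in KO. Egr2 had -0.13 ± 0.11, from 24.0% lower to 10.1% higher. Egr1 had 0.08 ± 0.19, from 24.1% lower to 47.2% higher, the widest interval toward higher values. The intervals of Nr4a2 (0.03 ± 0.17) and Nr4a3 (0.03 ± 0.17) ran from 23.4% lower to 36.1% higher and from 24.0% lower to 37.7% higher. Egr3 had -0.04 ± 0.20, from 31.8% lower to 38.2% higher. For none of the 6 did the interval reach a 2-fold change in either direction.

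**Figure D3:**
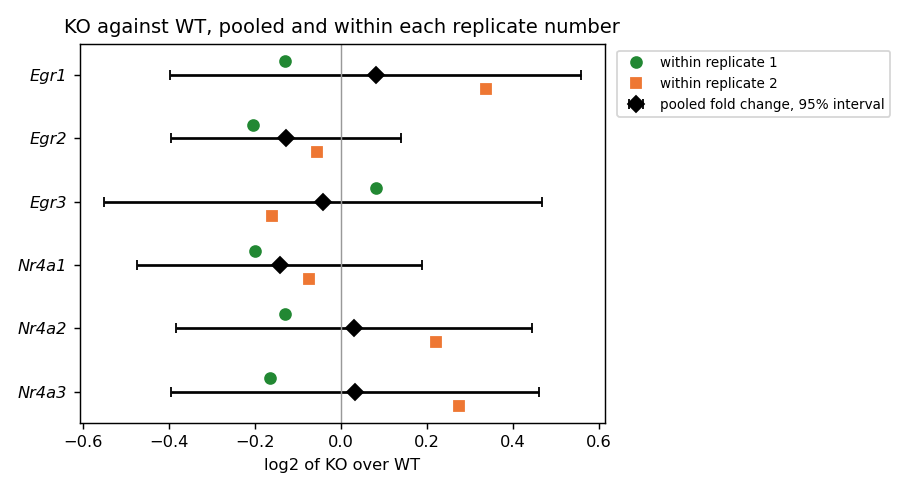
Log2 of KO over WT for each gene, from the test over all libraries with its 95% interval (diamonds and bars) and within replicate 1 (circles) and replicate 2 (squares). All intervals include 0, and circles and squares fall on opposite sides of 0 for every gene but Egr2 and Nr4a1.

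Within replicate 1 KO was higher for 1 of the 6 genes (Egr3) and within replicate 2 for 3 (Egr1, Nr4a2 and Nr4a3). Egr2 and Nr4a1 were the 2 genes with KO lower in both. The median absolute log2 ratio of the 6 was 0.15 in replicate 1 and 0.19 in replicate 2, beside 0.12 and 0.15 over all tested genes. The values of Egr1, Nr4a2 and Nr4a3 depended on single libraries. Without WT replicate 2 their log2 fold changes were -0.17, -0.18 and -0.20, and without WT replicate 1 they were 0.38, 0.27 and 0.30, with an adjusted p of at least 0.999 in edgeR for each. Nr4a2 and Nr4a3 also turned without KO replicate 1, to -0.035 and -0.0076. Nr4a1 went from -0.28 without WT replicate 2 to 0.01 without WT replicate 1, while Egr2 kept its sign whichever of the 4 libraries was left out, from -0.18 to -0.09. With 1 library per genotype and replicate number, a difference of the genotype effect between replicates cannot be tested.

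Genes that act with or upstream of the 6 were likewise called by neither edgeR (genotype only) nor DESeq2. Among partners and corepressors, 9 of 10 genes were tested, 6 above 0 and 3 below, beside 52.0% of all tested genes above 0. The list had a median log2 fold change of 0.01 and no gene at an unadjusted p under 0.05. Nab1 and Nab2, the corepressors that Egr factors induce and that bind back to them, stood at 298 and 250 against 324 and 300 CPM and at 88.8 and 86.2 against 90.6 and 91.6 CPM (WT against KO). Their log2 fold changes were 0.19 ± 0.12 and 0.06 ± 0.09. Egr4 had 0.48 ± 0.45 at its low counts, and Ncor1, a general nuclear receptor corepressor, had 0.01 ± 0.13.

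The relay from the antigen receptor to the nucleus held 31 tested genes, 21 above 0 and 10 below, with a median of 0.04 and a range of -0.16 to 0.25, beside 52.0% of all tested genes above 0. Zap70, the kinase that docks on the activated receptor, had 0.12 ± 0.08, the coreceptor gene Cd4 0.18 ± 0.09, and Ppp3cb, a catalytic subunit of calcineurin, -0.16 ± 0.11. The phosphatase gene Ptprc (CD45) had 0.04 ± 0.11. None was at an unadjusted p under 0.05. Of the 16 transcription factor and cofactor genes that act on such promoters, 8 were above 0 and 8 below, with a median of 0.01. Among them Creb1, whose product reads the CRE, was at -0.0032 ± 0.13, Elk1, a partner of SRF, at 0.13 ± 0.11 and Mef2d at 0.14 ± 0.18. Hdac4 was at 0.16 ± 0.16 and the SRF coactivator gene Mkl2 at -0.24 ± 0.10. The Hdac4 value is that of a 2.39 kb row at a mean of 13.9 CPM. The other Hdac4 row, of 216 kb at 59.4 CPM, had 0.11 ± 0.12.

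Feedback inhibitors, which receptor and cytokine signals induce and which then dampen them, had 18 of 22 genes above 0 and a median of 0.15, the highest of the 8 lists and above the 0.01 of all tested genes. The share above 0 over all tested genes was 52.0%. Because the list was chosen with earlier results of these data known, this comparison is a description only. None of the list was called by edgeR (genotype only) or DESeq2. At an unadjusted p under 0.05 were 3 of the 22, beside 2.85% of all tested genes. These 3 were Dusp6 and Dusp2, phosphatases that act on ERK kinases, and Socs3, the inhibitor of cytokine receptor signalling. Dusp6 stood at 143 and 153 against 166 and 216 CPM, WT before KO (0.37 ± 0.14). Dusp2 stood at 180 and 190 against 214 and 223 CPM (0.24 ± 0.09), and Socs3 at 417 and 338 against 540 and 515 CPM (0.48 ± 0.12). For these 3 genes both KO libraries were above both WT libraries, as in 13.5% of all tested genes. They were picked by their low p, which favours such a gap, so the gap adds no support. The NF-κB inhibitors Tnfaip3 and Nfkbia, the most abundant by CPM, had 0.16 ± 0.12 and 0.21 ± 0.16.

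The other immediate early genes had 29 of 40 members above 0, beside 52.0% of all tested genes, and a median of 0.08. None was called by edgeR (genotype only) or DESeq2. At an unadjusted p under 0.05 in edgeR were 3 of the 40, beside 2.85% of all tested genes. The median log2 ratio of KO over WT in this list was -0.03 within replicate 1 and 0.21 within replicate 2. This was the same order as in Egr1 (-0.13 and 0.34). The 3 genes were Rgs1 and Rgs2, regulators of G protein signalling, and Ier3, a stress and survival gene. Rgs1 stood at 2072 and 1921 against 2357 and 2587 CPM, WT before KO (0.31 ± 0.11), Rgs2 had 0.32 ± 0.10 and Ier3 had 0.40 ± 0.12. Junb, an AP-1 subunit and the most abundant of the list by CPM, was at 4902 and 4148 against 4420 and 4071 CPM (-0.09 ± 0.13). The authors' deposited table gave Junb an adjusted p of 0.0116, the only member of the 8 lists under 0.05 there, beside 0.344% of all rows. The comparison behind that value is not stated, and edgeR gave Junb an unadjusted p of 0.50 with overlapping genotypes. The antiproliferative gene Btg1 had 0.17 ± 0.14.

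Heat shock genes are induced by stress, handling of tissue included. Of this list 8 of 15 members were above 0, beside 52.0% of all tested genes, with a median of 0.02. Within replicates their median was -0.22 and 0.21, of opposite sign as for Egr1, Nr4a2 and Nr4a3. Hspa1b stood at 4556 and 3751 against 3751 and 4845 CPM, WT before KO, and Hspa1a at 4104 and 3346 against 3369 and 4402 CPM. For both genes KO replicate 2 was the highest library, which it was for none of the 6, and within WT replicate 2 was lower than replicate 1 as it was for Egr1. Hspb1 had -0.32 ± 0.13, Hspa4l -0.16 ± 0.10 and Hspa5 0.15 ± 0.12. The part of the heat shock response in the replicate differences of the Egr and Nr4a genes was not tested.

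Downstream, the tolerance genes linked to Egr2 and Egr3 had 10 of 17 members above 0 (52.0% over all tested genes), with a median of 0.07. None was called by edgeR (genotype only) or DESeq2. At an unadjusted p under 0.05 in edgeR was 1 of the 17, beside 2.85% of all tested genes. That gene was Fasl, the death ligand, at 27.4 and 27.3 CPM for WT against 35.2 and 32.0 for KO (0.30 ± 0.10). Prdm1, which encodes Blimp-1, had 0.19 ± 0.11, the semaphorin receptor gene Nrp1 0.23 ± 0.13, the cytokine gene Il10 0.02 ± 0.09 and the cell cycle inhibitor gene Cdkn1b -0.01 ± 0.10. The Treg and restraint genes linked to Nr4a factors had 9 of 16 members above 0, again beside 52.0%, and a median of 0.06. None was called by edgeR (genotype only) or DESeq2. At an unadjusted p under 0.05 in edgeR were 3 of the 16, again beside 2.85%. Pdcd1, which encodes PD-1, stood at 357 and 321 against 469 and 401 CPM (0.36 ± 0.11), and Entpd1, the ectonucleotidase CD39, at 60.6 and 72.3 against 85.1 and 92.3 CPM (0.42 ± 0.12). Cd200, an inhibitory ligand, went the other way at 20.9 and 25.4 against 17.4 and 18.7 CPM (-0.36 ± 0.14). Foxp3, Ikzf2 and Ctla4 had -0.06 ± 0.09, -0.05 ± 0.13 and 0.24 ± 0.10.

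**Figure D4:**
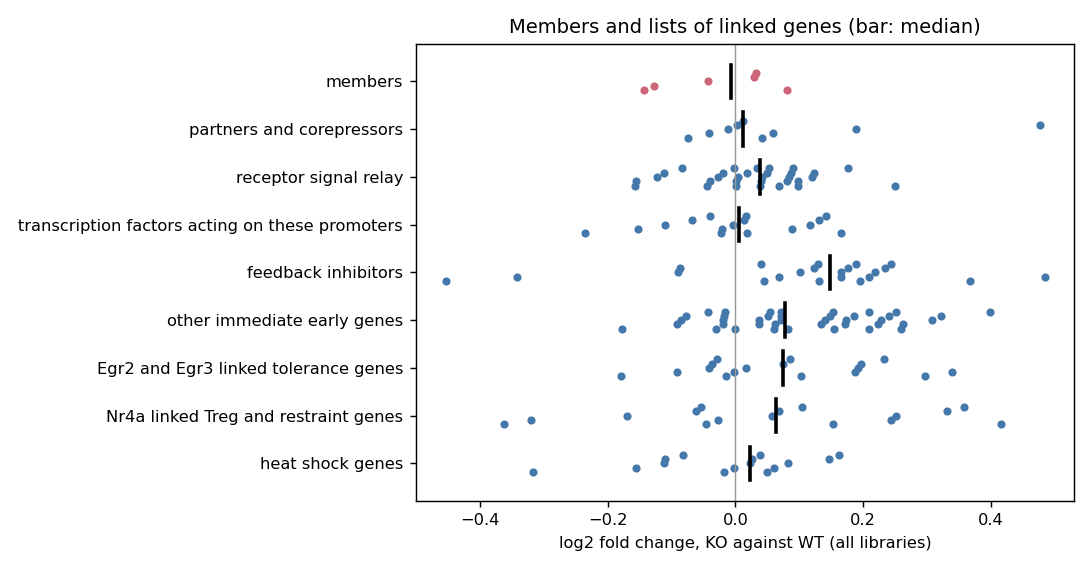
Log2 fold change of KO against WT for the 6 genes (red) and for each tested gene of the 8 lists of linked genes (blue), with a black bar at the median of each. The 6 genes lie between -0.14 and 0.08, and the list medians run from 0.01 to 0.15, with no gene called by edgeR (genotype only).

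The marker lists of other cells that are reported here summed to at most 350 CPM in any library, and in sorted bulk samples fewer cells of a type and less RNA per cell cannot be told apart. Summed B cell markers (6 genes) ran from 18.9 to 20.8 CPM in WT and from 13.2 to 17.7 CPM in KO, and mast cell or basophil markers (5 of 6) from 11.5 to 12.3 and from 4.92 to 6.26 CPM. The mast cell sum was almost all Kit, which is not specific to mast cells (12.2 and 10.9 against 6.10 and 4.87 CPM), while Cpa3 reached at most 0.161 CPM and Fcer1a was at 0 in every library. Plasma cell markers (4 of 6), mostly Igj, were higher in replicate 2 of both genotypes. They summed to 133 and 264 CPM in WT replicates 1 and 2 and to 138 and 350 CPM in KO. Endothelial markers (6 genes) ran from 114 to 126 CPM in WT and from 111 to 121 CPM in KO, mostly Pecam1. The low markers Vwf, Tek, Cdh5 and Kdr, at most 2.88 CPM, were higher in replicate 2 of both genotypes, while Lyve1 was lower there in WT. Dendritic cell markers (6 genes) ran from 34.9 to 37.3 and from 41.0 to 43.3 CPM, mostly Zbtb46. Epithelial (8 genes), cytotoxic (7 genes) and neutrophil (4 of 6) markers summed to at most 24.0, 13.8 and 1.15 CPM in any library. The part of these cells in the values of the Egr and Nr4a genes was not tested.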

How the data were processed

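RNA was extracted from sorted cells, depleted of ribosomal RNA and read as 50 bp single-end reads, per the labels' protocols. The authors deposited 1 table of whole-number counts per gene and library, without normalization, with gene positions and an adjusted p-value per gene in the same deposited table. Its comparison is not stated there and was read as KO against WT. TopHat2, DESeq and mm9 were used, per the submitters' processing notes. No source used here names the counter, the annotation or whether strand was used, which leaves the assignment of reads from overlapping or antisense genes uncertain. The 4 ATAC-seq samples of the series were not used. Counts were tested with edgeR 4.0.16 in R 4.3.3 (quasi-likelihood F-test, genotype only, filterByExpr, TMM, 14274 genes tested, Benjamini-Hochberg adjusted p under 0.05). Errors after ± are standard errors for fold changes, back-computed from the F statistic. Log2 ratios of single libraries use a prior count of 2. Marker sums and the marker genes given with them use library totals without TMM. Counting intervals are exact 95% binomial intervals, which leave out all error but counting, as no molecular identifiers were used. DESeq2 1.42.0 (all genes with a count) and limma 3.58.1 (voom) were alternatives, beside other scalings, filters, a newer quasi-likelihood method, a replicate block and leaving out each library. A symbol with repeated rows (Hdac4) was read from its first tested row. The script was tested on simulated data. Genes were named by a written rule: the 6 genes, per list the 3 of lowest p and the 2 of highest mean CPM, Egr4, Nab1, Nab2, Foxp3 and Ahr, and the 3 genes nearest in profile to each of the 6. Not all of them are printed, and 1 marker list is not reported here. The genes and lists were chosen with earlier results of these data known.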

Additional observations from a re-analysis of the deposited data

How the results depend on the processing

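The 6 genes were called under none of the 13 alternatives. Their lowest adjusted p was 0.343, for Nr4a1 with the replicate number as a block, and at least 0.999 in every other fit. Of 72 fold changes under 12 refits, 64 kept their direction, including all under other scalings, filters and tests, and the 8 that turned came from leaving out 1 library. Without a library the log2 fold change ran from -0.17 (without WT replicate 2) to 0.38 (without WT replicate 1) for Egr1, from -0.13 to 0.034 for Egr3, from -0.28 to 0.012 for Nr4a1, from -0.18 to 0.27 for Nr4a2 and from -0.20 to 0.30 for Nr4a3. Egr3 was 0.0029 without WT replicate 2, and Nr4a2 and Nr4a3 were -0.04 and -0.0076 without KO replicate 1. Such fits have 1 library in a genotype, assumed to vary like the others, and compare unequal mixes of the replicates. The counts of 1 and 3 genes higher in KO within replicates 1 and 2 did not change with the prior count (0.5 or 5) or without TMM factors. The number of genes called was 0 in the main test, 52 with no filter, 48 in DESeq2 and 458 with the replicate block, and 0 to 2 without a library (2 without KO replicate 1 and 2 without KO replicate 2). The cause was not tested. The change from replicate 1 to replicate 2 in WT correlated with that in KO at 0.641 across genes, but with 2 libraries per genotype and no such statement in the labels the numbers are not taken as pairs. With that block none of the 6 was called, and called list members were 4 of 22 feedback inhibitors (Socs3, Dusp6, Dusp2 and Zfp36l1), 5 of 40 other immediate early genes (Rgs1, Rgs2, Ier3, Jund and Fosl2), 5 of 16 Treg and restraint genes (Entpd1, Pdcd1, Havcr2, Ctla4 and Cd200), 1 of 17 tolerance genes (Nrp1) and 1 of 31 relay genes (Orai1), beside 3.21% of all tested genes. Of these 16, Zfp36l1 (-0.33) and Cd200 (-0.36) were lower in KO and the other 14 higher. Only 1 residual degree of freedom remains with the block. Depth limits Egr3 and Egr4, while the spread between libraries limits Egr1, Nr4a1, Nr4a2 and Nr4a3.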
